A study of Homo sapiens with 12 samples.

Results

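The 29 genes described here encode enzymes of cholesterol synthesis, the sterol regulatory element binding proteins (SREBPs) with their regulators, and proteins of sterol uptake, transport and efflux. The members were the rows of the deposited count table whose gene symbol equals one of 29 listed symbols, and all 29 were found among the 60649 genes of the table. RNA sequencing of 12 libraries was performed on SK-UT-1B and SK-LMS-1, established uterine leiomyosarcoma (uLMS) cell lines labelled wild type. SK-UT-1B is derived from a primary tumor and SK-LMS-1 from a vulvar metastasis, so each tumor stage is represented by a single line. SK-LMS-1 cells were exposed for 72 h to MK-0752, a gamma secretase inhibitor (replicates 2 and 3 of set 2), or to MK-0752 with gemcitabine and docetaxel (the combination, replicates 1 and 2 of set 4), all at the IC30. The IC30 was set for each line and treatment, so MK-0752 was at a lower concentration within the combination than alone, and each drug of the combination was at a lower concentration in SK-UT-1B than in SK-LMS-1. The equivalent volume of DMSO was given to the SK-LMS-1 controls of set 2 (replicates 1 and 3) and set 4 (replicates 1 and 2). SK-UT-1B received DMSO (replicates 1 and 2 of set 4) or the combination (replicates 1 and 3 of set 3). Each of the 6 groups holds 2 libraries. Set stands here for the first number of a library's label, whose meaning the labels and methods do not state, and DMSO controls were matched by it. In SK-UT-1B that number also differs between DMSO and the combination, so whatever it marks and the treatment cannot be told apart. The labels do not say whether libraries of a group came from separate cultures, so p-values measure the spread between these libraries, which may be technical.

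Cells make cholesterol from acetyl-CoA through mevalonate, the prenyl diphosphates, squalene and lanosterol. When sterols in the endoplasmic reticulum are low, SCAP escorts the SREBP precursors to the Golgi apparatus, where proteolysis releases transcription factors that raise the genes of synthesis and uptake. When sterols are plentiful, the INSIG proteins hold SCAP in the endoplasmic reticulum, and liver X receptors raise genes of efflux and of receptor turnover, such as ABCA1 and MYLIP. INSIG1 is itself an SREBP target.

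Promoters are shown for INSIG1, the member that passed the test after MK-0752, for HMGCS1 and MSMO1, which had the next smallest p-values there, and for SREBF2, the only one of 26 members with a window that held the full sterol regulatory element there. Sequences are RefSeq windows on GRCh38.p14 from 250 bases before to 50 bases after a gene start, read 5′ to 3′ along the gene. Capitals mark 3 motifs on either strand, the sterol regulatory element TCACNCCAC bound by SREBPs, the CCAAT box bound by NF-Y, and the Sp1 box GGGCGG. Adjoining Sp1 boxes can share bases. The windows are chr7:155297628-155297927 on the plus strand for INSIG1, chr5:43313363-43313662 on the minus strand for HMGCS1 (the first of its 2 windows), chr4:165327419-165327718 on the plus strand for MSMO1, and chr22:41832855-41833154 on the plus strand for SREBF2.
INSIG1: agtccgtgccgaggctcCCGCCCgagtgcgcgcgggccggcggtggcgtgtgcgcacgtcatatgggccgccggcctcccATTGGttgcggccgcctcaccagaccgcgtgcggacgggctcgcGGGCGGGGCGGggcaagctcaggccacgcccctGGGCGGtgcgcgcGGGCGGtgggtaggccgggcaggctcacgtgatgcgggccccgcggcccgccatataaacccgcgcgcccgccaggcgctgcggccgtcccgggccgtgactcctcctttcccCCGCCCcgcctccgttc
HMGCS1: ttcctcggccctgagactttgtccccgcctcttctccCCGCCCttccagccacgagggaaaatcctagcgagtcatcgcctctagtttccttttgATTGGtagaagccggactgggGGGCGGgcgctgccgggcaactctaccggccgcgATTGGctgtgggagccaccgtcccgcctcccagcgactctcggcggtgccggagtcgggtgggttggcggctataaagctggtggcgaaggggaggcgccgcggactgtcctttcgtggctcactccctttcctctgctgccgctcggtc
MSMO1: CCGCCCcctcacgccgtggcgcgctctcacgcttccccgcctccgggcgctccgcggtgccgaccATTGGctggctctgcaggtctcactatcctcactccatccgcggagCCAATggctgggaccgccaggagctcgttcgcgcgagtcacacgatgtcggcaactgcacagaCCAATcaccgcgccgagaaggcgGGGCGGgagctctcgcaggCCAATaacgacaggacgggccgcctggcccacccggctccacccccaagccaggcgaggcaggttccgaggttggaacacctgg
SREBF2: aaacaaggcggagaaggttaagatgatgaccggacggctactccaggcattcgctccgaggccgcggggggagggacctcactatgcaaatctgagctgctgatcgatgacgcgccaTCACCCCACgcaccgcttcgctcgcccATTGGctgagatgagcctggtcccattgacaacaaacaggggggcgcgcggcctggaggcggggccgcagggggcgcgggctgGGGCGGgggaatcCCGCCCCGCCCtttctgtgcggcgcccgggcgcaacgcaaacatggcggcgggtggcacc

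The INSIG1 window held 1 CCAAT box and 6 Sp1 boxes, the HMGCS1 window 2 of each, and the MSMO1 window 4 CCAAT and 2 Sp1 boxes. In the SREBF2 window the sterol regulatory element began 133 bases before the start and a CCAAT box 106 bases before it. The table held 34 windows for 26 of the 29 members. A CCAAT box was found in 61.8% of the member windows and in 34.6% of all 35116 windows, and an Sp1 box in 88.2% and 45.0%. The letters TCACNCCAC were found in 1 member window and in 1.13% of all windows. These shares describe letters in fixed windows and do not locate binding.

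Total counts lay between 25250057 and 40709885 per library. Of the 9 smooth muscle markers, ACTA2, CNN1, TAGLN, CALD1 and SMTN were present in every SK-LMS-1 library. DES went the other way, at 0 in SK-LMS-1 and at 9.76 and 5.33 CPM (counts scaled to library size) in SK-UT-1B after DMSO. The 9 markers summed to at most 124 CPM in SK-UT-1B and to 538 to 621 CPM in SK-LMS-1. The smooth muscle myosin MYH11 was at or near 0 in both lines. KRT8 lay between 87.0 and 109 CPM in SK-LMS-1 and was at 0 in SK-UT-1B, while EPCAM reached 1.04 CPM at most and CDH1 0.0796 CPM. HES1, a Notch target, fell in SK-LMS-1 by 2.76 (log2FC, adjusted p = 0.0153, edgeR) after MK-0752 and by 3.37 (adjusted p = 0.0227) after the combination. In SK-UT-1B its log2FC was -1.70 (adjusted p = 0.14), with 8.38 and 7.21 CPM after DMSO and 2.51 and 2.27 CPM after the combination. The authors chose these treatments for sequencing because HES1 had fallen by qPCR, so its fall here is not an independent check of the inhibitor. HEY1 and NRARP, the other Notch targets examined, had negative log2FC and were not called after any treatment.

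To determine which sterol genes changed with treatment, each treatment was compared with its DMSO libraries. All 29 members were among the 21114 genes tested. A gene was called when its absolute log2 fold change (log2FC) was at least 1 and its Benjamini-Hochberg adjusted p over all tested genes was under 0.05 in edgeR's quasi-likelihood test. Levels are in CPM on TMM-scaled library sizes. Member counts ranged from 5 to 8579 per library, and the higher library of a pair held a median of 1.16 times the level of the lower.

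INSIG1 (ENSG00000186480.13, chr7:155297776-155310235, hg38, plus strand), which encodes the anchor that retains SCAP, was the only member called after MK-0752 in SK-LMS-1. Its level was 53.0 and 72.1 CPM in DMSO set 2 and 168 and 185 CPM after MK-0752, and in DMSO set 4 it was 59.0 and 87.0 CPM. Both MK-0752 libraries lay above all 4 DMSO libraries of the line. The log2FC was 1.50 ± 0.22 (SE; adjusted p = 0.00246, edgeR, n = 2 against 2), a 2.82-fold rise. The call held in all 10 alternatives, with a log2FC of 1.29 to 1.72 and an adjusted p of 2.07e-09 to 0.0129. Among all genes tested, 0.0568% were called higher and 0.194% lower in this comparison.

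No enzyme of synthesis passed the adjusted threshold after MK-0752 in edgeR, and HMGCS1 and MSMO1 had the smallest p-values among them. HMGCS1, which condenses acetoacetyl-CoA with acetyl-CoA (chr5:43287470-43313512, minus strand), was at 22.1 and 21.6 CPM after DMSO and at 58.3 and 38.9 CPM after MK-0752 (log2FC 1.15 ± 0.28, adjusted p = 0.0966, edgeR). MSMO1, the sterol C4 methyl oxidase (chr4:165327667-165343164, plus strand), was at 40.2 and 36.5 CPM and at 98.6 and 78.7 CPM (log2FC 1.21 ± 0.30, adjusted p = 0.114). For both genes the treated and control libraries did not overlap. Both were called in 5 of 10 alternatives, and when DMSO sets 2 and 4 were pooled as the control, HMGCS1 had a log2FC of 1.32 (adjusted p = 0.00694) and MSMO1 of 1.42 (adjusted p = 0.00751). Without MK-0752 replicate 3, HMGCS1 had a log2FC of 1.42 (adjusted p = 0.0139) and MSMO1 of 1.36 (adjusted p = 0.0249), and both were called. Without MK-0752 replicate 2 the values were 0.83 (adjusted p = 0.657) and 1.04 (adjusted p = 0.275).

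Of the remaining members, FDFT1, SQLE, MVK, FDPS and DHCR7 had an unadjusted p under 0.05 and adjusted p-values of 0.285 to 0.578. FDFT1, squalene synthase, was at 109 and 113 CPM after DMSO and at 152 and 175 CPM after MK-0752. SQLE, the squalene epoxidase, was at 54.0 and 51.8 CPM and at 86.7 and 77.4 CPM. The libraries of these 2 genes did not overlap. MVK, mevalonate kinase, was at 5.90 and 11.5 CPM and at 22.2 and 19.1 CPM, although DMSO set 4 reached 16.6 CPM. FDPS, which forms farnesyl diphosphate, was at 26.6 and 28.4 CPM and at 45.2 and 42.3 CPM, and DHCR7, which makes cholesterol from 7-dehydrocholesterol, at 87.4 and 82.0 CPM and at 114 and 135 CPM. All 8 members with an unadjusted p under 0.05 had a positive log2FC. At that p, 523 of all 21114 genes tested were higher and 831 lower.

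**Figure D1:**
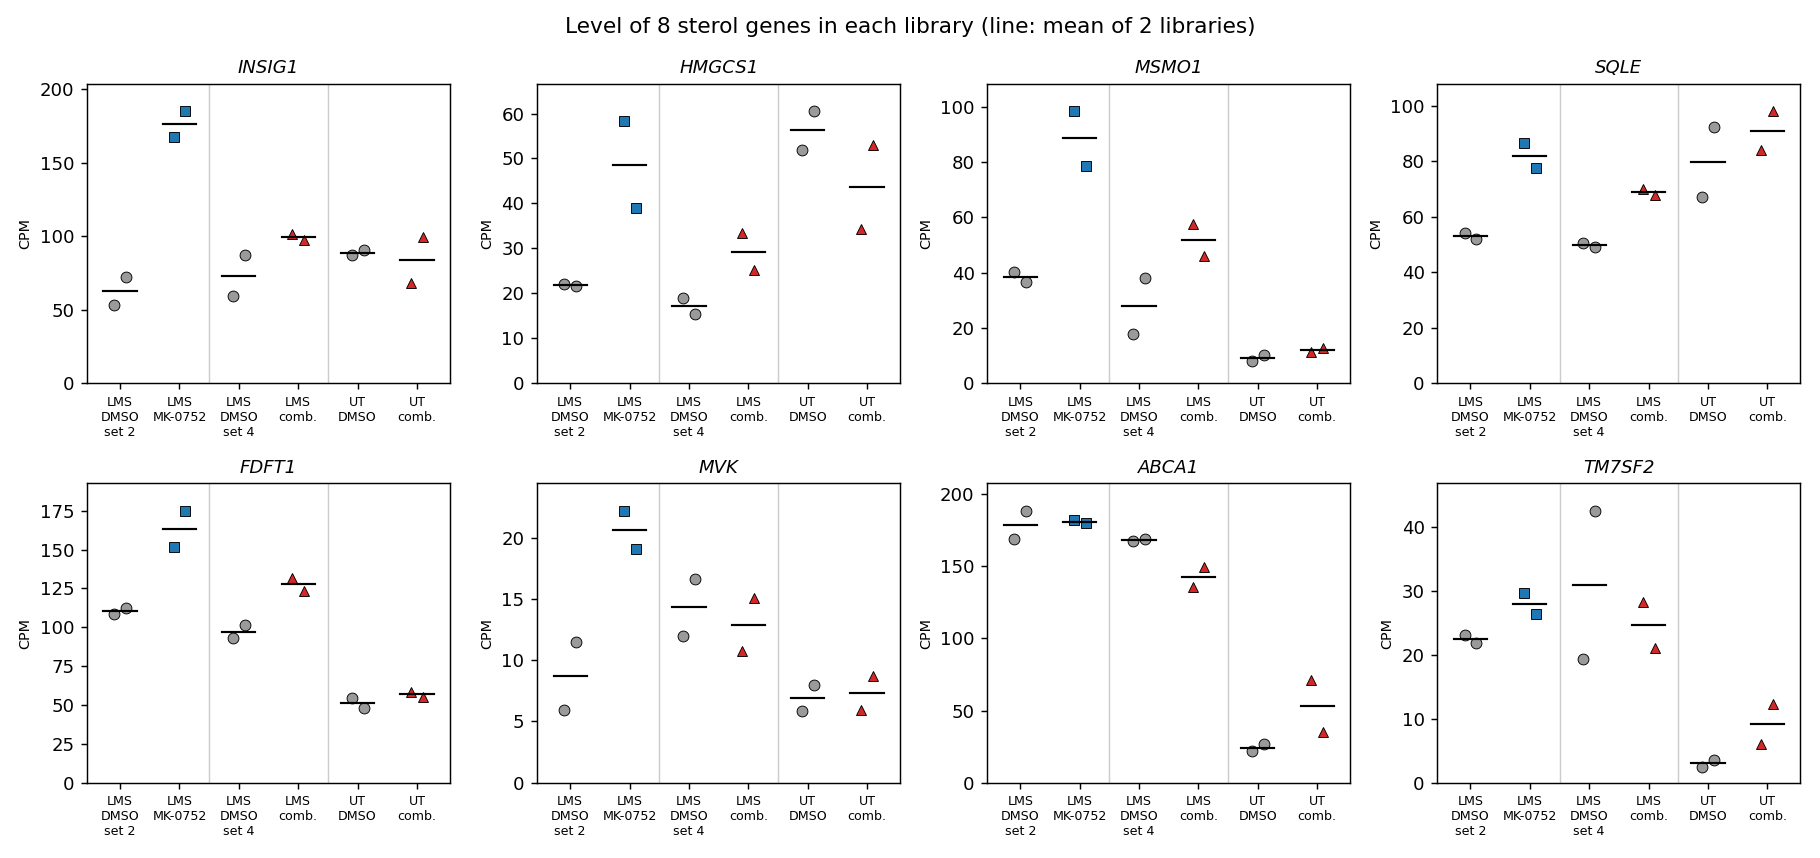
Level in CPM (linear axis) of 8 sterol genes in each of the 12 libraries, by line (LMS, SK-LMS-1; UT, SK-UT-1B) and treatment (comb., combination), with points for libraries and a line for the mean of 2 libraries. INSIG1 is at 168 and 185 CPM after MK-0752, above every other library, while ABCA1 after the combination in SK-UT-1B is at 71.3 CPM in 1 library and 35.3 CPM in the other.

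Of the 29 members, 24 had a positive log2FC after MK-0752, with a median of 0.32, whereas 46.9% of all genes were positive, with a median of 0. Treated libraries lay above both control libraries for 17 members, where 16.9% of all genes did, and below for 2, where 17.5% did. By role, the log2FC was positive for 5 of 6 genes from acetoacetyl-CoA to isopentenyl diphosphate, both prenyl diphosphate synthases, all 3 genes from squalene to lanosterol and all 9 genes from lanosterol to cholesterol. The 20 enzymes summed to 716 ± 0.151 CPM (SD, n = 2) in DMSO set 2, to 672 ± 52.1 CPM in DMSO set 4 and to 1031 ± 17.3 CPM after MK-0752. Of the 4 uptake, transport and efflux genes, TMEM97 and MYLIP were lower in both treated libraries than in DMSO set 2. MYLIP, a ligase that degrades lipoprotein receptors, was at 41.1 and 41.5 CPM in DMSO set 2 and at 28.3 and 27.3 CPM after MK-0752 (adjusted p = 0.806, edgeR). TMEM97 was at 31.0 and 31.2 CPM and at 23.1 and 25.1 CPM, although DMSO set 4 replicate 1 was at 16.2 CPM. The regulators SREBF1, SREBF2, SCAP and INSIG2 were not called, with log2FC of -0.17 to 0.26.

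The 6 proliferation genes examined beside the members (MKI67, TOP2A, CCNB1, CDK1, MCM2 and PCNA) summed to 820.3 to 841 CPM in DMSO set 2 and to 475 to 507 CPM after MK-0752. CCNB1 was called lower (log2FC -1.09, adjusted p = 0.0286, edgeR), and MKI67 was lower under the fold threshold (log2FC -0.91, adjusted p = 0.00488). TOP2A, CDK1, MCM2 and PCNA had negative log2FC and adjusted p-values of 0.226 to 0.793. The 6 epithelial markers summed to 217 to 262 CPM in DMSO set 2, to 246 to 266 CPM in DMSO set 4 and to 169 to 181 CPM after MK-0752, with KRT18 at 124 ± 28.6 CPM (SD, n = 2) in DMSO set 2 and at 68.3 ± 5.61 CPM after MK-0752 (adjusted p = 0.728, edgeR). The part of either list in the sterol gene differences was not tested. The libraries hold bulk RNA, so a change in the share of cells cannot be told apart from a change in RNA per cell.

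Of 44 other genes of the pathway that were examined, MK-0752 gave 1 higher call and 0 lower calls. This gene was SCD, the stearoyl-CoA desaturase and an SREBP target, at 826 and 909 CPM after DMSO and at 1902 and 1887 CPM after MK-0752 (log2FC 1.13 ± 0.12, adjusted p = 6.1e-05, edgeR). The median log2FC of the 44 genes was 0.08, and 27 were positive, against 46.9% of all genes.

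After the combination in SK-LMS-1, no member was called higher or lower by edgeR or DESeq2, and 8 members had an unadjusted p under 0.05 in edgeR, all with a positive log2FC. Among all 21114 genes tested, 669 were higher and 245 lower at that p. The 8 members became 5 with the DMSO sets pooled, and fewer than 8 whenever a library of the comparison was left out. The background was 0.0142% of genes called higher and 0.00947% called lower. SREBF2, the main SREBP of cholesterol synthesis, was at 162 and 151 CPM in DMSO set 4 and at 220.4 and 204 CPM after the combination (log2FC 0.44 ± 0.15, adjusted p = 0.907, edgeR). HMGCS1 was at 18.9 and 15.3 CPM and at 33.4 and 25.1 CPM (log2FC 0.78 ± 0.28, adjusted p = 0.907). SQLE was at 50.7 and 49.1 CPM and at 70.2 and 68.0 CPM. The treated libraries of all 3 genes lay above their controls. INSIG1 was at 59.0 and 87.0 CPM and at 101 and 97.7 CPM (log2FC 0.45 ± 0.22, adjusted p = 0.907).

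MSMO1 and SC5D, the lathosterol oxidase, varied between the DMSO libraries of set 4. MSMO1 was at 17.7 and 38.0 CPM after DMSO and at 57.5 and 46.0 CPM after the combination (log2FC 0.89 ± 0.30, adjusted p = 0.907, edgeR), and SC5D at 52.6 and 80.5 CPM and at 110.0 and 101 CPM (log2FC 0.66 ± 0.22, adjusted p = 0.907). Without DMSO set 4 replicate 2 both were called, MSMO1 with a log2FC of 1.57 (adjusted p = 0.00382) and SC5D with 1.02 (adjusted p = 0.0244). Without DMSO set 4 replicate 1 the values were 0.45 and 0.39 (adjusted p = 1.0 for both). The median log2FC of the members was 0.25, against 0.03 for all genes, and 20 of 29 were positive, against 52.9% of all genes. Treated libraries lay above both controls for 15 members, where 21% of all genes did, and below for 3, where 11.4% did. The 20 enzymes summed to 841 ± 14.6 CPM (SD, n = 2). The proliferation genes summed to 800 to 832 CPM in DMSO set 4 and to 599 to 690 CPM after the combination, and their part was not tested. None of the 44 other pathway genes was called by edgeR or DESeq2, with 2 and 4 at an unadjusted p under 0.05. SCD was at 828 and 866 CPM and at 1260.0 and 1264 CPM (log2FC 0.58 ± 0.12, adjusted p = 0.229).

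To determine whether MK-0752 alone and the combination differed, the effects in SK-LMS-1 were subtracted, each taken against its own DMSO set. The arms differ in the concentration of MK-0752 as well as in the added drugs, and these cannot be told apart. No member was called in edgeR or DESeq2, 3 had an unadjusted p under 0.05 in edgeR, and 0.0379% of all genes were called in either direction. The 3 members were positive, beside 329 positive and 765 negative of all 21114 genes at that p. For INSIG1 the MK-0752 effect exceeded the combination effect by 1.05 ± 0.31 on the log2 scale (adjusted p = 0.645, edgeR). The difference was called without DMSO set 2 replicate 3 (1.26, adjusted p = 0.0498) and without DMSO set 4 replicate 1 (1.30, adjusted p = 0.0167), and was 0.72 (adjusted p = 0.467) without DMSO set 4 replicate 2. The DMSO sets themselves, which hold no drug, differed in no member by edgeR or DESeq2, with 2 members at an unadjusted p under 0.05 in edgeR. Among all genes edgeR called 0 higher and 0 lower, with 452 and 745 at an unadjusted p under 0.05, and DESeq2 called 20 and 50. With no filter beyond 1 count edgeR called 54 higher and 55 lower. It also called genes in both directions whenever a library of either set was left out. The 2 members were GGPS1, which forms geranylgeranyl diphosphate, at 11.4 and 10.1 CPM in set 2 and 5.03 and 5.93 CPM in set 4, and SC5D.

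**Figure D2:**
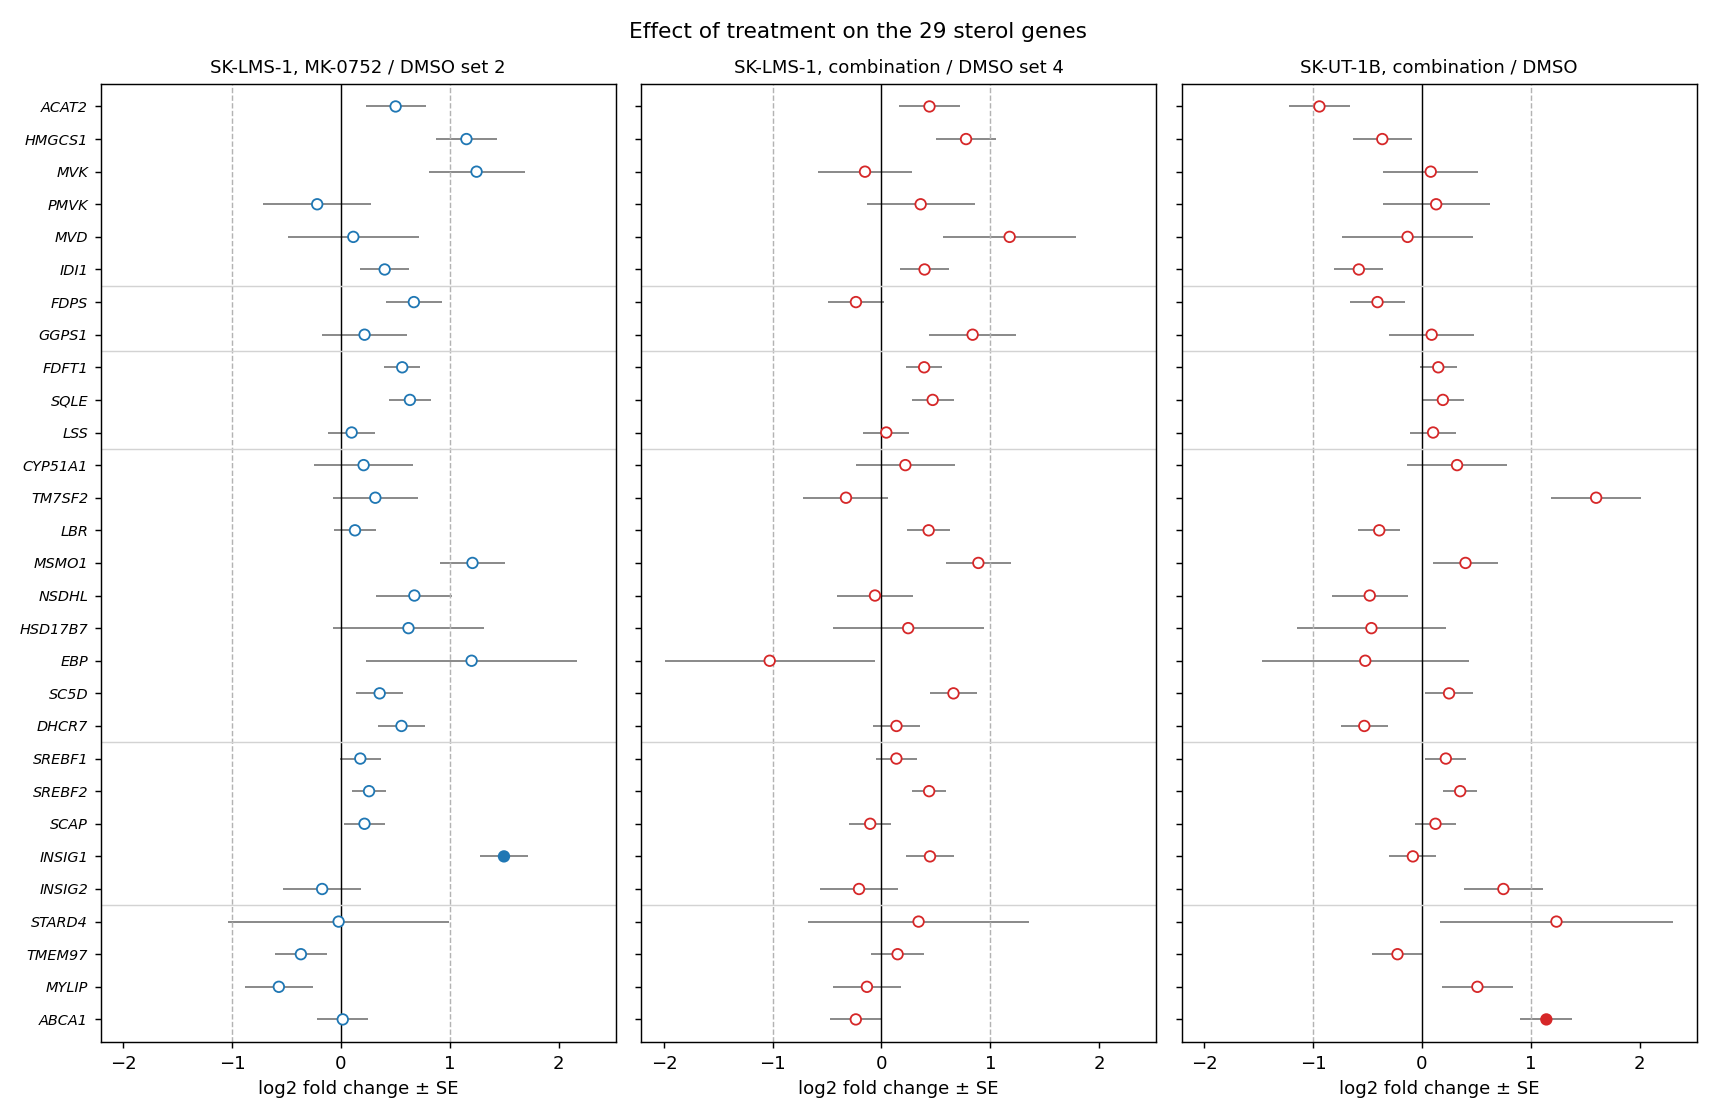
Log2 fold change with its SE of each of the 29 members after MK-0752 in SK-LMS-1 (left), the combination in SK-LMS-1 (middle) and the combination in SK-UT-1B (right), ordered by role, with filled points for members called and dashed lines at the fold threshold. INSIG1 (1.50) is the filled point on the left, no point in the middle is filled, and ABCA1 (1.14) is the filled point on the right.

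After the combination in SK-UT-1B, ABCA1 was the only member called. ABCA1 (ENSG00000165029.17, chr9:104781006-104928155, minus strand) encodes the transporter that exports cholesterol to apolipoproteins and is a target of liver X receptors. It was at 21.8 and 26.5 CPM after DMSO and at 71.3 and 35.3 CPM after the combination (log2FC 1.14 ± 0.24, adjusted p = 0.0374, edgeR, n = 2 against 2). Both treated libraries were above both controls, with 1 treated library at 2.02 times the other. The call was lost without combination replicate 1 (log2FC 0.52, adjusted p = 0.31), without DMSO replicate 1 (log2FC 0.99, adjusted p = 0.0092), with only the libraries of the comparison (adjusted p = 0.598) and with a mean of at least 50 counts (adjusted p = 0.0695). In this comparison 0.393% of all genes were called higher and 0.166% lower.

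The member with the highest log2FC was TM7SF2, a sterol C14 reductase (ENSG00000149809.17, chr11:65111845-65116384, plus strand), at 2.46 and 3.61 CPM after DMSO and at 6.12 and 12.4 CPM after the combination (log2FC 1.60 ± 0.41, adjusted p = 0.0900, edgeR). It was called by DESeq2 (adjusted p = 0.0204), without DMSO replicate 2 (log2FC 1.91, adjusted p = 0.00735) and without combination replicate 1 (log2FC 1.99, adjusted p = 0.000302). Without combination replicate 3 its log2FC was 1.01 (adjusted p = 0.168), and over all alternatives its adjusted p ranged up to 0.618. ACAT2, which forms acetoacetyl-CoA, had the lowest log2FC, with 72.0 and 68.7 CPM after DMSO and 25.1 and 48.2 CPM after the combination (log2FC -0.94 ± 0.28, adjusted p = 0.151). Without combination replicate 3 it was called lower (log2FC -1.49, adjusted p = 0.00049), and without combination replicate 1 its log2FC was -0.57 (adjusted p = 0.826). TM7SF2 overlaps VPS51 on the same strand, and ACAT2 overlaps SOD2 and TCP1 on the other strand. The strand setting of the counts is not given in the sources used here, so reads in shared exons cannot be assigned with certainty.

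The other members of SK-UT-1B moved less or varied more between libraries. IDI1, the isopentenyl diphosphate isomerase, was at 68.8 and 77.4 CPM after DMSO and at 44.7 and 53.2 CPM after the combination, and DHCR7 at 49.4 and 35.3 CPM and at 23.5 and 35.2 CPM (adjusted p = 0.309 and 0.361, edgeR). SREBF2 was at 136 and 131 CPM and at 167 and 174 CPM (log2FC 0.35 ± 0.15, adjusted p = 0.408). INSIG1, the member called after MK-0752 in SK-LMS-1, was at 87.2 and 90.4 CPM and at 68.4 and 99.2 CPM, with overlapping groups. STARD4, a cytosolic sterol carrier, cannot be compared firmly, because its DMSO libraries held 5 and 202 counts. Its log2FC was 1.24 ± 1.07 (adjusted p = 0.833), and it was called higher without DMSO replicate 2 (log2FC 5.23, adjusted p = 2.75e-12) and without combination replicate 1 (log2FC 1.71, adjusted p = 0.00226), and was at 0.29 (adjusted p = 1.0) without DMSO replicate 1. Of the 29 members 17 had a positive log2FC, with a median of 0.10, against 49.1% of all genes. The median was 0.02 without DMSO replicate 2, 0.03 without DMSO replicate 1 and 0.03 without combination replicate 3. Treated libraries lay above both controls for 8 members, where 16.7% of all genes did, and below for 5, where 15.4% did. The 20 enzymes summed to 833 ± 58.4 CPM (SD, n = 2) after DMSO and to 724 ± 89.7 CPM after the combination. The proliferation genes summed to 2459.8 to 2757 CPM and to 1513 to 1944 CPM, and their part was not tested. Of the 44 other pathway genes none was called by edgeR, with 4 at an unadjusted p under 0.05, and 1 by DESeq2. At that p in edgeR, 1142 of all 21114 genes were higher and 1072 lower.

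The combination effects of the lines were then subtracted, although drug concentrations differ between the lines, so that line and dose cannot be told apart. No member was called by edgeR, 1 was called by DESeq2, 7 had an unadjusted p under 0.05 in edgeR, and 0.232% of all genes were called in either direction. Of the 7 members, 5 were positive and 2 negative, beside 940 and 679 of all 21114 genes at that p. More members had an unadjusted p under 0.05 in some fits with a library left out. Those were the fits without SK-LMS-1 DMSO set 4 replicate 2, SK-UT-1B DMSO replicate 2 or either SK-UT-1B combination library. These fits tested more genes, and more of all genes were at that p too. The rise is therefore not read as particular to the sterol genes. ABCA1 had the lowest adjusted p, with an effect in SK-LMS-1 that was below that in SK-UT-1B (difference of log2FC -1.38 ± 0.33, adjusted p = 0.162, edgeR). In SK-LMS-1 it was at 167 and 169 CPM in DMSO set 4 and at 136 and 150 CPM after the combination. With each library left out in turn, the ABCA1 difference ranged from -1.80 to -0.78, the latter without SK-UT-1B combination replicate 1. Every such fit called more of all genes than the main fit did. Calls of ABCA1 in these fits are therefore not read as firmer than the main fit. Over all alternatives its adjusted p ranged from 1.63e-09 to 0.52.

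Of the 6 enzymes from acetoacetyl-CoA to isopentenyl diphosphate, none was called by edgeR for this difference and 3 had an unadjusted p under 0.05. The effect in SK-LMS-1 exceeded that in SK-UT-1B by 1.38 ± 0.39 for ACAT2 (adjusted p = 0.305, edgeR), by 1.14 ± 0.39 for HMGCS1 (adjusted p = 0.467) and by 0.98 ± 0.32 for IDI1 (adjusted p = 0.436). Without SK-UT-1B combination replicate 3, all 3 were called, at 1.93, 1.49 and 1.10 (adjusted p = 0.000489, 0.0165 and 0.0356), and without SK-LMS-1 DMSO set 4 replicate 1 ACAT2 was called at 1.65 (adjusted p = 0.017). Without SK-UT-1B combination replicate 1 the 3 differences were 0.98, 0.85 and 0.85 (adjusted p = 0.401, 0.609 and 0.342). TM7SF2 had a difference of -1.93 ± 0.57 (adjusted p = 0.333). It was called without SK-LMS-1 DMSO set 4 replicate 1 (-2.36, adjusted p = 0.00308), without SK-UT-1B DMSO replicate 2 (-2.24, adjusted p = 0.015) and without SK-UT-1B combination replicate 1 (-2.35, adjusted p = 0.00213), and was -1.21 (adjusted p = 0.428) without SK-LMS-1 DMSO set 4 replicate 2. Among members with an unadjusted p over 0.05, STARD4 was called without SK-UT-1B DMSO replicate 2 (-4.89, adjusted p = 2.44e-08) and MVD, the mevalonate diphosphate decarboxylase, without SK-UT-1B combination replicate 3 (3.02, adjusted p = 0.0116). At the other extreme, STARD4 was at 0.07 without SK-UT-1B DMSO replicate 1 and MVD at 0.55 without SK-UT-1B combination replicate 1 (adjusted p = 1.0 for both).

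The lines differed in more members than the treatments did. After DMSO, 9 members were called higher and 6 lower in SK-LMS-1, taking SK-UT-1B as the reference, where 17% and 14.1% of all genes were called. At any fold, 9 members were higher and 9 lower at an adjusted p under 0.05, where 21.5% and 19.5% of all genes were. After the combination, 7 members were called higher and 3 lower, where 15.6% and 9.88% of all genes were called, and at any fold 8 were higher and 3 lower, where 19.3% and 13.6% were. Without SK-UT-1B DMSO replicate 2, 5 members were called higher after DMSO. Nothing particular to the sterol genes is read from these counts.

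LBR and TM7SF2, which both encode sterol C14 reductases, differed in opposite directions. LBR (ENSG00000143815.15, chr1:225401502-225428925, minus strand), which also encodes a receptor of the nuclear lamina, was at 180.5 and 227 CPM in SK-UT-1B after DMSO and between 27.3 and 43.0 CPM in SK-LMS-1 with the same vehicle. The groups did not overlap, and the level was 5.59-fold lower in SK-LMS-1 (log2FC -2.48 ± 0.16, adjusted p = 1.72e-10, edgeR). TM7SF2 was at 2.46 and 3.61 CPM in SK-UT-1B and between 19.4 and 42.6 CPM in SK-LMS-1 (log2FC 3.12 ± 0.41, adjusted p = 2.9e-06). Per kb of exon, LBR made up 97.4% and 97.8% of the sum of both genes in SK-UT-1B after DMSO, 88.6% and 93.5% after the combination, and 33.5% to 54.7% over the 8 SK-LMS-1 libraries. After the combination the differences between the lines were -1.86 ± 0.20 for LBR (adjusted p = 3.72e-07) and 1.42 ± 0.40 for TM7SF2 (adjusted p = 0.00876). The call of TM7SF2 after the combination was lost without SK-LMS-1 combination replicate 1 (1.18, adjusted p = 0.0598) and without SK-UT-1B combination replicate 1 (0.97, adjusted p = 0.0868).

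**Figure D3:**
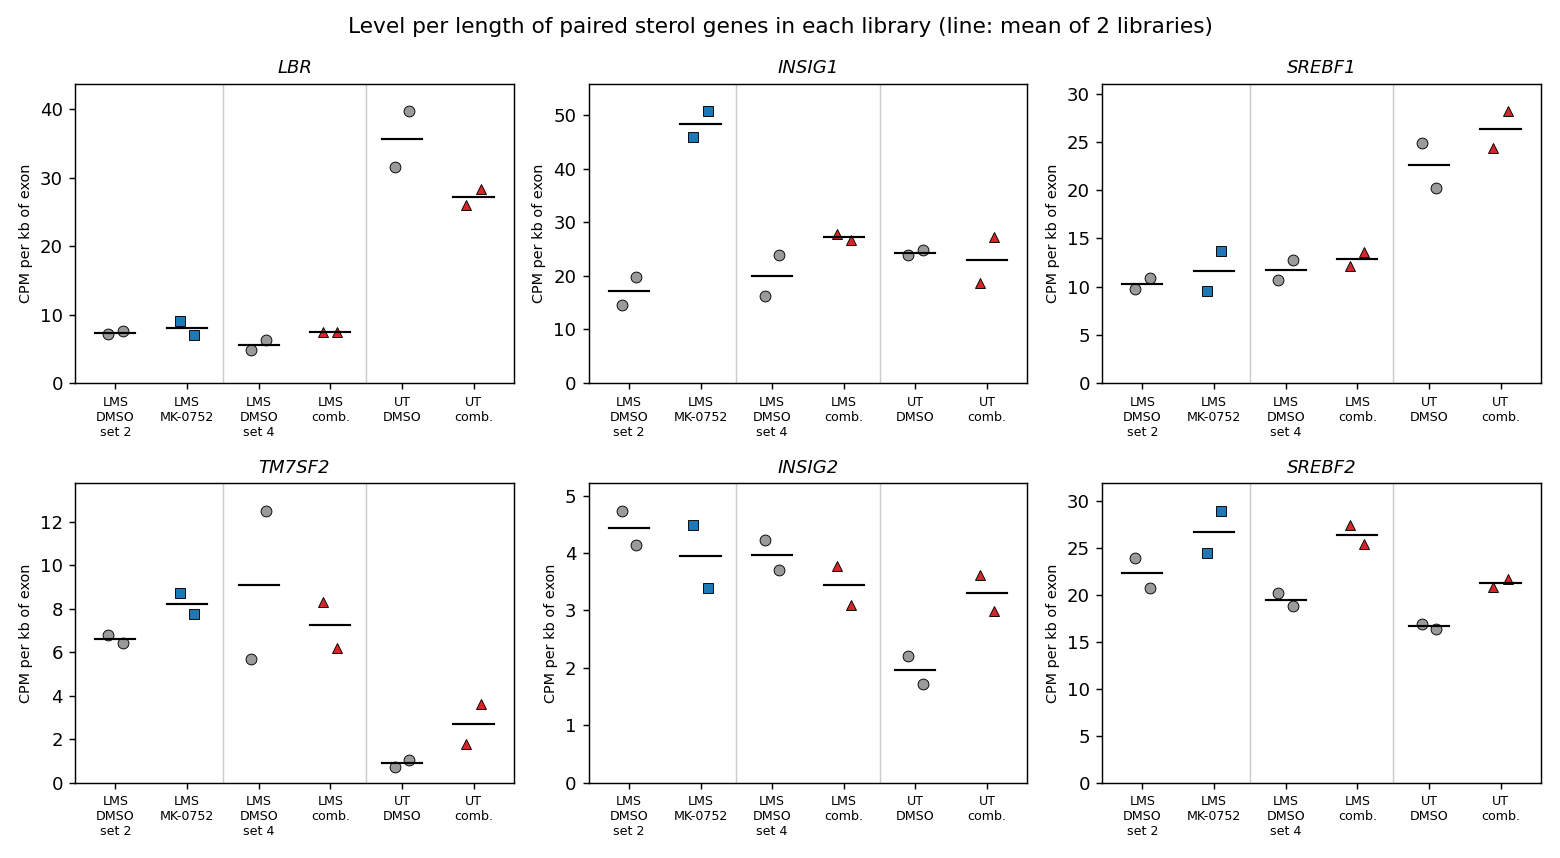
Level in CPM per kb of exon of paired sterol genes in each library, by line (LMS, SK-LMS-1; UT, SK-UT-1B) and treatment (comb., combination), with points for libraries and a line for the mean of 2 libraries; axes differ between panels. LBR lies between 26.0 and 39.8 in SK-UT-1B and between 4.79 and 9.09 in SK-LMS-1, and TM7SF2 between 0.721 and 3.63 and between 5.69 and 12.5.

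Of the same 6 early enzymes, 2 were called lower and 0 higher in SK-LMS-1 after DMSO, beside 14.1% and 17% of all genes. ACAT2 was between 16.9 and 27.7 CPM in SK-LMS-1 and at 72.0 and 68.7 CPM in SK-UT-1B (log2FC -1.59 ± 0.23, adjusted p = 1.09e-05, edgeR). HMGCS1 was between 15.3 and 22.1 CPM and at 51.9 and 60.6 CPM (log2FC -1.54 ± 0.23, adjusted p = 1.52e-05). Neither gene was called between the lines after the combination, where the log2FC of HMGCS1 was -0.58 ± 0.28 (adjusted p = 0.125). IDI1 and SQLE were lower after DMSO at an adjusted p under 0.05 without reaching the fold, with log2FC of -0.65 and -0.63. MVK was the 1 early enzyme with a positive log2FC, at 11.5 ± 4.39 CPM (SD, n = 4) in SK-LMS-1 and at 6.92 ± 1.47 CPM (n = 2) in SK-UT-1B, with overlapping libraries (log2FC 0.69 ± 0.39, adjusted p = 0.168).

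Among the later enzymes, MSMO1 was between 17.7 and 40.2 CPM in SK-LMS-1 and at 7.82 and 10.2 CPM in SK-UT-1B after DMSO (log2FC 1.86 ± 0.28, adjusted p = 2.01e-05, edgeR), and the difference was 2.12 ± 0.31 after the combination (adjusted p = 1.62e-05). DHCR7 was between 82.0 and 97.5 CPM and at 49.4 and 35.3 CPM (log2FC 1.08 ± 0.20, adjusted p = 0.000151), and 1.83 ± 0.22 higher after the combination (adjusted p = 1.83e-06). Without SK-UT-1B DMSO replicate 2 the difference of DHCR7 after DMSO was 0.86 (adjusted p = 0.00382), under the fold threshold. NSDHL, a C4 decarboxylating dehydrogenase, was called higher after the combination (1.24 ± 0.35, adjusted p = 0.00983), a call lost without SK-LMS-1 combination replicate 2 (1.06, adjusted p = 0.0511). After DMSO its log2FC was 0.50 ± 0.31 (adjusted p = 0.202) with all 4 DMSO libraries of SK-LMS-1. The difference of the combination effects, which takes DMSO set 4 alone as the SK-LMS-1 control, was 0.42 ± 0.49 (adjusted p = 1.0).

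FDFT1 was between 93.1 and 113 CPM in SK-LMS-1 and at 54.5 and 48.0 CPM in SK-UT-1B after DMSO (log2FC 1.02 ± 0.15, adjusted p = 1.65e-05, edgeR). It sat at the fold threshold, with a log2FC of 0.93 to 1.07 over the 12 alternatives, and lost the call in 8 of them, among them those without SK-LMS-1 DMSO set 2 replicate 1 (0.98), set 2 replicate 3 (0.97), set 4 replicate 2 (0.94) and SK-UT-1B DMSO replicate 2 (0.93). After the combination it was called in all 9 alternatives (1.17 ± 0.17 in the fit with all libraries, adjusted p = 1.62e-05). CYP51A1, the lanosterol demethylase, was between 10.2 and 13.5 CPM and at 7.24 and 3.85 CPM after DMSO (log2FC 1.06 ± 0.41, adjusted p = 0.0477). Its call was lost when any of the 6 libraries of the comparison was left out, with a log2FC of 0.67 to 1.54 and an adjusted p of 0.0502 to 0.459. CYP51A1 overlaps AKAP9 on the other strand and ENSG00000285772 and ENSG00000289027 on the same strand. MVK overlaps MMAB, GGPS1 overlaps ARID4B and TMEM97 overlaps IFT20 on the other strand. GGPS1 overlaps ENSG00000285053 and EBP overlaps ENSG00000286268 on the same strand. HSD17B7, the sterol 3-keto reductase, was between 0.946 and 4.75 CPM and at 10.1 and 18.1 CPM (log2FC -2.33 ± 0.57, adjusted p = 0.00246), and without SK-UT-1B DMSO replicate 2 the difference was -1.84 (adjusted p = 0.0579). After the combination it was at 3.29 ± 0.0154 CPM (SD, n = 2) and at 10.2 ± 0.329 CPM (n = 2), with a log2FC of -1.63 ± 0.70 (adjusted p = 0.0863), and was called lower with DESeq2 (-1.67, adjusted p = 0.0417) and with only the libraries of the comparison (-1.64, adjusted p = 0.0257). HSD17B7 and FDPS have related pseudogenes, and whether these affect their counts was not tested.

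SREBF1, which encodes the SREBP-1 precursors, was lower in SK-LMS-1 and SREBF2 was not called. SREBF1 was between 80.4 and 105 CPM in SK-LMS-1 and at 205 and 167 CPM in SK-UT-1B after DMSO (log2FC -1.04 ± 0.16, adjusted p = 2.11e-05, edgeR), and the difference was -1.03 ± 0.19 after the combination (adjusted p = 0.00024). It fell under the fold threshold without SK-UT-1B DMSO replicate 1 (-0.93) after DMSO, and without SK-LMS-1 combination replicate 1 (-0.97) or SK-UT-1B combination replicate 3 (-0.92) after the combination. SREBF2 was between 151 and 193 CPM and at 136 and 131 CPM after DMSO (log2FC 0.33 ± 0.13, adjusted p = 0.0607). Per kb of exon the ratio of SREBF1 to SREBF2 was 1.17 to 1.47 in SK-UT-1B and 0.393 to 0.68 in SK-LMS-1, so that SREBF1 was the more abundant in every library of the first line and SREBF2 in every library of the second. SREBF1 overlaps RAI1 on the other strand. SCAP was 0.43 ± 0.16 lower on the log2 scale after DMSO (adjusted p = 0.0416), with overlapping libraries.

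INSIG2, the second SCAP anchor, was between 14.6 and 18.7 CPM in SK-LMS-1 and at 8.72 and 6.79 CPM in SK-UT-1B after DMSO (log2FC 1.10 ± 0.33, adjusted p = 0.0106, edgeR). This call was lost without SK-LMS-1 DMSO set 2 replicate 1 (1.00, adjusted p = 0.0581), without SK-UT-1B DMSO replicate 1 (1.25, adjusted p = 0.0534) and without SK-UT-1B DMSO replicate 2 (0.93, adjusted p = 0.163). After the combination INSIG2 was at 14.9 and 12.2 CPM in SK-LMS-1 and at 14.3 and 11.8 CPM in SK-UT-1B, and the groups overlapped. Per kb of exon INSIG1 exceeded INSIG2 in every library, with a ratio of 3.06 to 6.43 in SK-LMS-1 after DMSO, of 10.2 and 15.0 with MK-0752 and of 7.34 and 8.65 with the combination. In SK-UT-1B the ratio was 10.8 and 14.4 with DMSO and was 5.19 and 9.11 in the libraries given the combination.

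Of the 4 genes of uptake, transport and efflux, 3 had a higher call and 1 a lower call in SK-LMS-1 cells given DMSO, where 17% and 14.1% of all genes did. ABCA1 was between 167 and 189 CPM in SK-LMS-1 and at 21.8 and 26.5 CPM in SK-UT-1B after DMSO, a 7.18-fold difference (log2FC 2.84 ± 0.24, adjusted p = 2.29e-08, edgeR), and 1.42 ± 0.24 higher on the log2 scale after the combination (adjusted p = 0.000134). MYLIP was between 35.2 and 41.5 CPM and at 2.98 and 6.66 CPM (log2FC 3.03 ± 0.32, adjusted p = 1.94e-07). TMEM97, a sterol-responsive protein of the endoplasmic reticulum, went the other way, between 16.2 and 31.2 CPM and at 123 and 135 CPM (log2FC -2.24 ± 0.20, adjusted p = 1.56e-08). For these 3 genes the lines did not overlap, and the calls held in every alternative and after the combination. STARD4 was between 20.4 and 34.3 CPM in SK-LMS-1 and at 0.173 and 5.36 CPM in SK-UT-1B, with the wide spread named above (log2FC 3.33 ± 1.07, adjusted p = 0.0439), and was not called with only the libraries of the comparison (adjusted p = 0.0736). After the combination its log2FC was 2.27 ± 1.07 (adjusted p = 0.171), and it was called when any 1 of the 4 libraries was left out (log2FC 1.72 to 3.07, adjusted p = 1.29e-09 to 0.000416) and with only the libraries of the comparison (adjusted p = 0.0183).

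PMVK, MVD, LSS and EBP, all enzymes of synthesis, were called in neither comparison of the lines. Over the 12 libraries PMVK, the phosphomevalonate kinase, was between 4.28 and 11.8 CPM, and LSS, the lanosterol synthase, between 47.8 and 80.1 CPM. EBP, the sterol isomerase, was between 0.487 and 7.65 CPM, and was called lower in SK-LMS-1 after DMSO without SK-LMS-1 DMSO set 2 replicate 3 (log2FC -2.15, adjusted p = 0.0413, edgeR; -1.32, adjusted p = 0.195 with all libraries). MVD was between 3.09 and 19.0 CPM, and was called higher after the combination without SK-UT-1B combination replicate 3 (log2FC 2.36, adjusted p = 0.00307), whereas its log2FC was 0.65 (adjusted p = 0.447) with all libraries and -0.14 (adjusted p = 0.986) without SK-UT-1B combination replicate 1.

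**Figure D4:**
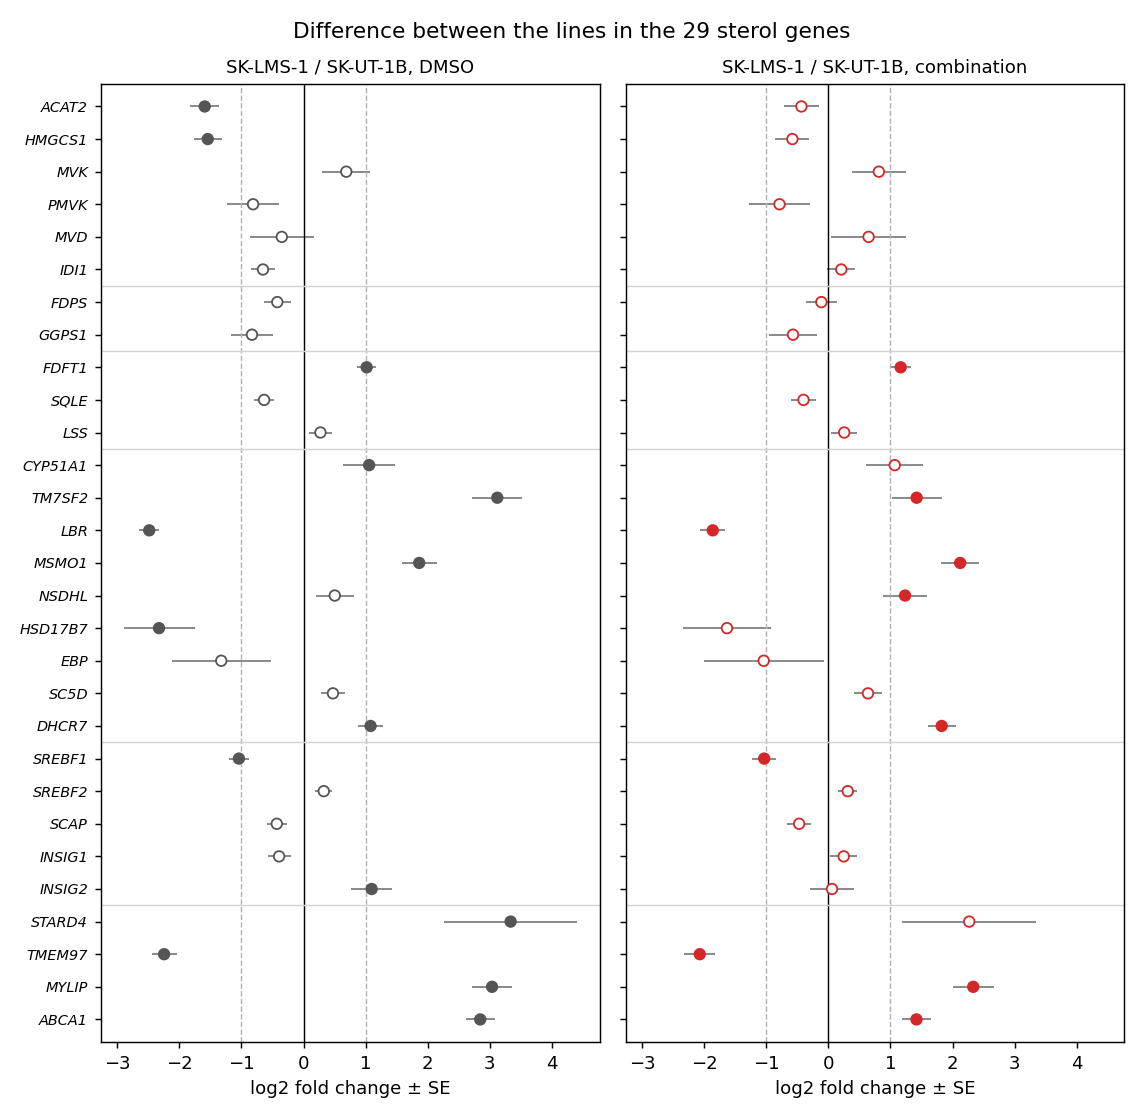
Log2 fold change with its SE of each of the 29 members in SK-LMS-1 against SK-UT-1B, with DMSO (left) and with the combination (right), with positive values for a higher level in SK-LMS-1, filled points for members called and dashed lines at the fold threshold. MYLIP, ABCA1, TM7SF2 and MSMO1 are filled at positive values and LBR and TMEM97 at negative values in both panels.

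Of the 44 other pathway genes, 9 had a higher call and 4 a lower one in SK-LMS-1 cells given DMSO, and 11 and 2 in those given the combination. Over all genes these shares were 17% and 14.1%, and 15.6% and 9.88%. Of the 10 genes listed for sterol transport, storage and hydrolysis, 5 had a positive log2FC after DMSO, and 3 (NPC1, NPC2 and LIPA) were called higher and 0 lower. NPC1 was at 288 ± 15.8 CPM (SD, n = 4) in SK-LMS-1 and at 69.9 ± 6.91 CPM (n = 2) in SK-UT-1B (log2FC 2.04 ± 0.15, adjusted p = 8.72e-10, edgeR), NPC2 differed by 1.70 ± 0.17 and LIPA, the lysosomal acid lipase, by 1.66 ± 0.17. NR1H2, which encodes liver X receptor beta, was at 99.6 ± 15.7 CPM and at 23.8 ± 4.32 CPM (log2FC 2.06 ± 0.22, adjusted p = 2.06e-07). The lower genes after DMSO were FASN and ACLY of fatty acid and acetyl-CoA synthesis, PDSS1 of the ubiquinone side chain and LPCAT3, a target of liver X receptors. FASN was at 171 ± 23.0 CPM and at 758 ± 92.0 CPM (log2FC -2.15 ± 0.20, adjusted p = 8.24e-07). The proliferation genes summed to 800 to 841 CPM in SK-LMS-1 and to 2459.8 to 2757 CPM in SK-UT-1B after DMSO, and their part in these line differences was not tested.

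Likeness among the members was described over the 8 SK-LMS-1 libraries, with no test, since these share treatments and sets. The level of HMGCS1 (log2 CPM with a pseudocount of 1) had a Pearson's r of 0.95 with SQLE, 0.92 with ACAT2, 0.87 with FDFT1, 0.85 with MSMO1 and 0.80 with INSIG1, and of -0.86 with MYLIP. CYP51A1, TM7SF2 and INSIG2 had an r of -0.03, 0.03 and 0.04 with it. Over all 12 libraries, where the lines differ in level, r was 0.89 with SQLE, 0.88 with ACAT2, -0.35 with FDFT1, -0.24 with MSMO1, 0.54 with INSIG1, -0.62 with CYP51A1, -0.57 with TM7SF2 and -0.57 with INSIG2. Of 11836 other genes with a mean of at least 100 counts, CCDC80 (0.99), COLEC12 (0.98), C11orf54 (0.97), SNHG14 (0.97) and DMXL1 (0.97) had the highest r with HMGCS1, and none of these 5 is a member. All 5 were highest in an MK-0752 library, with CCDC80 at 269 and 253 CPM after MK-0752 and between 180 and 202 CPM over the 4 DMSO libraries.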

How the data were processed

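The 12 libraries cover 2 uLMS lines in 6 groups of 2. The authors made stranded, ribosome-depleted libraries and aligned trimmed reads to hg38 (submitters' processing notes: Trim Galore 0.3.7, STAR 2.7.9a, DESeq2 1.42.0). The authors deposited raw counts per gene from STAR, without normalization. The annotation and strand setting are not given in the sources used here. Positions, exon lengths and overlaps came from GENCODE 44 on hg38, where 54131 of 60649 versioned identifiers were found, and promoter windows from RefSeq on GRCh38.p14.

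Members and gene lists were chosen with earlier results of these data known. Named genes are the 29 members, the other pathway genes called in a comparison, markers needed as label checks, and the 5 genes most like HMGCS1. The model was a robust quasi-likelihood fit in edgeR 4.0.16 (R 4.3.3) over all groups, after filterByExpr and TMM scaling. Controls were DMSO set 2 for MK-0752 and DMSO set 4 for the combination, by the first number of the library label. CPM were scaled by TMM, and CPM per kb used the union of exons. Total counts were 25250057 to 40709885. Alternatives were DESeq2, its size factors in edgeR, other count filters, fits without the other groups, pooled DMSO sets in SK-LMS-1, a replicate block, each library left out, and calls at any fold. The tests were tried on simulated data.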

Additional observations from a re-analysis of the deposited data

How the results depend on the processing

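Of 71 member values with an unadjusted p under 0.05 in a comparison, none changed sign under any alternative that was run, and 47 kept their side of the call in all of them, while the others gained or lost a call under at least 1. The 71 values were chosen by their p in the main fit, and the alternatives share most libraries, so stable signs were likely beforehand. Outside this choice signs could change. Between the lines after the combination, MVD was at 0.65 with all libraries and at -0.14 without SK-UT-1B combination replicate 1. Members called higher after the combination in SK-UT-1B numbered 2 with DESeq2, beside 289 of 29139 genes, and 3 with no filter beyond 1 count, beside 313 of 29139. They numbered 0 with a mean of at least 50 counts, beside 62 of 13522 genes, and 0 with only the libraries of the comparison, beside 0 of 16112. The fit with all libraries called 83 of 21114 genes higher. After MK-0752 the members called higher numbered 3 with DESeq2, with no filter beyond 1 count, with only the libraries of the comparison and with all DMSO libraries of the line as 1 group. The genes called higher under these settings were, in that order, 64 of 29139, 72 of 29139, 23 of 16776 and 22 of 21114, against 12 of 21114 in the main fit. For the difference of the combination effects, 1 member was called higher and 2 lower with no filter beyond 1 count, beside 180 and 224 of 29139 genes. With DESeq2, 1 was called lower, beside 104 of 29139 genes, and the median was 0.15 with all DMSO libraries as 1 group. For the difference of the effects in SK-LMS-1, 1 member was called higher with only the libraries of the comparison, beside 7 of 18754 genes. The median was 0.20 with all DMSO libraries as 1 group and 0.13 with a mean of at least 50 counts.

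With each library left out in turn, the members called higher ranged from 0 to 3 and those called lower from 0 to 1 after the combination in SK-UT-1B (median 0.021 to 0.093). They ranged from 1 to 3 higher after MK-0752 (median 0.25 to 0.39), from 0 to 2 higher after the combination in SK-LMS-1, and from 5 to 8 higher between the lines after DMSO (median -0.38 to -0.17). The median between the lines after the combination ranged from -0.020 to 0.34. For the difference of the combination effects, 0 to 4 were called higher and 1 to 3 lower (median 0.16 to 0.32). For that of MK-0752 and the combination, 0 to 1 were called higher (median 0.029 to 0.17), and the median between the DMSO sets ranged from -0.16 to -0.010. For each treatment effect and each difference of effects, every fit with a library left out called more of all genes, higher and lower, than the main fit did. Between the lines after DMSO, the calls among all genes lay above the main fit in some of these fits and below it in others. The ranges of member calls are therefore not read as particular to the sterol genes. Where an arm keeps 1 library, it is assumed to vary like the other groups. The cause of these changes was not tested.

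With the replicate block, which the labels allow for the combination in SK-LMS-1, 0 members were called higher and 0 lower, with a median of 0.29. Deviations of same-numbered libraries had a correlation of -0.02. This value compares only the difference within each pair of libraries. It cannot show whether same-numbered libraries shared a culture or a batch. With 2 libraries a group, changes under the fold threshold are measured with wide error. The same holds for the members with the widest spread between libraries of a group (STARD4, EBP, HSD17B7 and MVD).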
